A study of Mus musculus with 2 samples.

Results

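The mitochondrially encoded genes were taken as the rows of the all-gene table whose biotype was mitochondrial rRNA or mitochondrial tRNA, or whose symbol began with mt-. The rule found 37 of the 37309 genes in the table, which were 2 rRNA genes, 22 tRNA genes and 13 protein-coding genes. RNA sequencing had been performed on intestinal subepithelial myofibroblasts (ISEMFs), the contractile stromal cells that lie beneath the crypt epithelium. Supportive ISEMFs came from the small intestine of neonatal C57BL/6 mice, 5 days old in the methods, and sustained the growth of epithelial crypts in co-culture. Non-supportive ISEMFs came from the small intestine of adult C57BL/6 mice, 2 months old in the methods, and supported crypts only weakly without added R-spondin. Both were cultured primary cells, neither label names a transgene or a treatment, and neither gives a passage. The names in the deposited table carry the codes P16 for the supportive and P3 for the non-supportive cells, which no source used here explains. Each population was 1 library, so no difference below has a replicate check or a p-value, and age, culture history and population cannot be told apart.

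The mitochondrial genome is a small circle that encodes both rRNAs of the mitochondrial ribosome, the tRNAs that this ribosome reads codons with, and core subunits of respiratory complexes I, III, IV and V. Each strand is transcribed as a long precursor that is cut mainly at the tRNAs, and the rRNAs and most of the mRNAs then receive short poly(A) tails. All other proteins of the organelle are encoded in the nucleus and imported. Pieces of mitochondrial DNA have also been copied into the nuclear chromosomes, and a short read from such a shared stretch cannot be assigned to 1 place.

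The sequences below show which members short reads could and could not place. All positions are on mm9, the genome build of the table, and were read from the matching NCBIM37 reference. A search of every 50-base window of the 16299-base mitochondrial genome, the read length of the study, found 5818 of the 16250 windows with an identical copy elsewhere in mm9 and 8412 with a copy of at most 2 mismatches, the number of mismatches the aligner allowed. mt-Atp8, a small subunit of ATP synthase (complex V), is shown because its first 120 bases at chrM:7766-7885 on the plus strand are identical to chr1:24621532-24621651 on the minus strand.
mt-Atp8: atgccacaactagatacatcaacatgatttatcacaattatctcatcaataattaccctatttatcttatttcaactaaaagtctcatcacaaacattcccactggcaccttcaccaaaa
mt-Tw, the tryptophan tRNA, is shown because the whole gene at chrM:4950-5016 on the plus strand is identical to chr2:22445479-22445545 on the minus strand.
mt-Tw: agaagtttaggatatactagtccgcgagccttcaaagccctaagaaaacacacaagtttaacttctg
mt-Cytb, cytochrome b of complex III, and mt-Tl1, a leucine tRNA, are shown as genes whose reads could be placed. In each pair the mitochondrial sequence comes first and the closest ungapped nuclear copy follows, with capitals for the bases that differ from the mitochondrial genome. The first 120 bases of mt-Cytb, chrM:14145-14264 on the plus strand, differed at 8 bases from chr4:79649893-79650012 on the plus strand.
mt-Cytb: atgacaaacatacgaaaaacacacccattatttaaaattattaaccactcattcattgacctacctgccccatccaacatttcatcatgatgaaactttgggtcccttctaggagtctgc
Nuclear copy of mt-Cytb: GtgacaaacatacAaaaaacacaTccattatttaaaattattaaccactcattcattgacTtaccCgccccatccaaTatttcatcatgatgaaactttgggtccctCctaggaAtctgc
The 75 bases of mt-Tl1, chrM:2676-2750 on the plus strand, differed at 13 bases from chr9:15124226-15124300 on the plus strand.
mt-Tl1: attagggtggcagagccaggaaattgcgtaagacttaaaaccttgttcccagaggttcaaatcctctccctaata
Nuclear copy of mt-Tl1: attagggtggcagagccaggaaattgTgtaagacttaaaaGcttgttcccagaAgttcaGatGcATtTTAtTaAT

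The longest shared stretches lay on chromosomes 1 and 2. The segment chr1:24619589-24623023 on the minus strand matched chrM:6394-9828 with 1 mismatch in 3435 bases, and chr1:24618374-24619595 continued it over chrM:9821-11042 with 0 mismatches in 1222 bases. Together they cover the end of mt-Co1, all of mt-Co2, mt-Atp8, mt-Atp6, mt-Co3, mt-Nd3 and mt-Nd4l, and the start of mt-Nd4. The segment chr2:22443046-22446054 on the minus strand matched chrM:4441-7449 with 81 mismatches in 3009 bases, an identity of 97.3%, and covers the end of mt-Nd2, all of mt-Co1, the tRNAs between them and the start of mt-Co2.

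Reads fell where unique windows were. Of the 37 members, 16 had no window that was unique within 2 mismatches, and those 16 genes held 6 reads in all over both libraries, with at most 2 reads on a gene in a library. The other 21 had at least 1 such window and 20 of them had a read. The exception was mt-Tn, the asparagine tRNA, with 7 unique windows and no read. In the plot of unique windows and reads along the mitochondrial genome the empty block runs through the genes copied to chromosome 1. For the 16 genes without such a window, a count near 0 was given in both populations and is not taken as a measure of their expression. By exact copies, some of the 16 did have unique windows and still had 0 reads. These were mt-Tt with 18 of 18 windows, mt-Ta with 22 of 23, mt-Te with 4 of 25 and mt-Nd3 with 3 of 300. Which of the 2 definitions the aligner followed is not known, so their counts cannot be read either way.

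**Figure D1:**
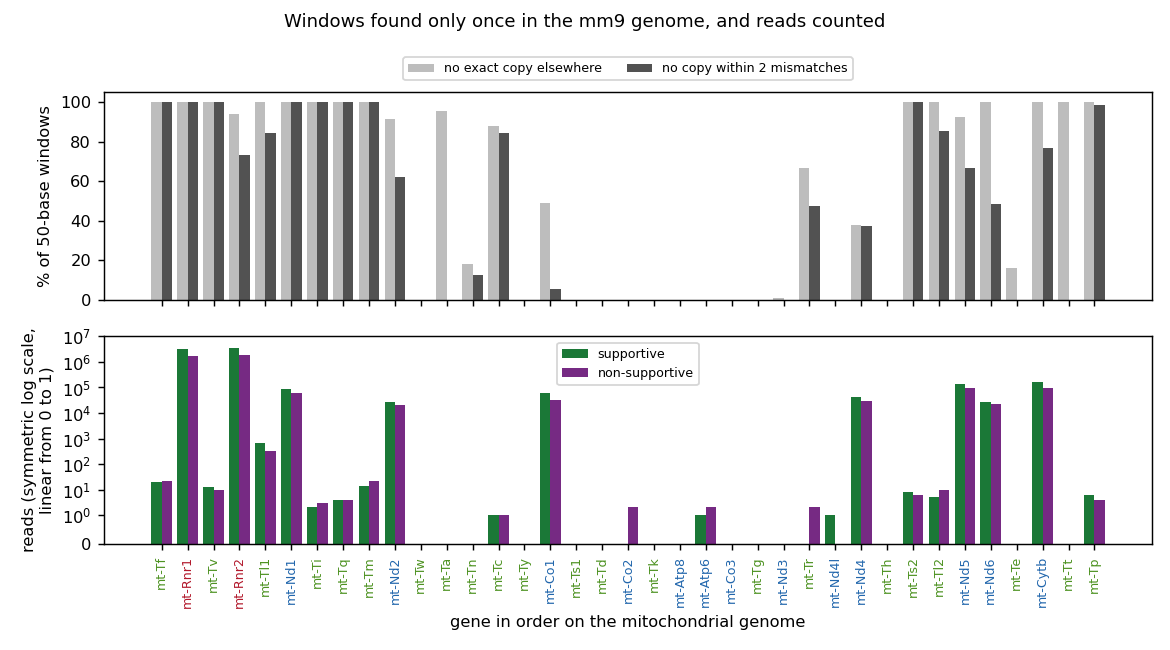
Upper panel, percent of the 50-base windows lying in 1 gene only that have no exact copy (light) or no copy within 2 mismatches (dark) elsewhere in mm9, and lower panel, reads per gene on a symmetric log scale for the supportive (green) and non-supportive (purple) library, in genome order with rRNA names in red, tRNA in green and protein genes in blue. The 16 genes without a dark bar held 6 reads in all, and both rRNA genes and 7 protein genes have 21197 reads or more in both libraries.

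The supportive library held more mitochondrial RNA than the non-supportive library. The reads counted on genes were 50674472 for supportive and 49615497 for non-supportive ISEMFs, and the library sizes behind the deposited RPKM were 71463423 and 69449374. Members took 7402444 reads of the supportive library, 14.6% of its reads on genes, and 3895819 reads of the non-supportive library, 7.85%. Scaled to library size the ratio of supportive over non-supportive was 1.85. Ratios below are all in that direction and scaled to library size, and their brackets are 95% exact (Clopper-Pearson) intervals that cover counting error only, since the reads carry no molecular identifiers.

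The classes differed in level far more than in ratio. Here and below, the value for supportive ISEMFs comes first. The rRNA genes held 6854583 and 3537218 reads, which was 13.5% and 7.13% of the reads on genes, a ratio of 1.88 (1.88 to 1.89). The protein genes held 547117 and 358206 reads, 1.08% and 0.722%, a ratio of 1.48 (1.48 to 1.49). The tRNA genes held only 744 and 395 reads, 0.00147% and 0.000796%, a ratio of 1.83 (1.62 to 2.07). The intervals of the rRNA and protein classes did not overlap, whereas the tRNA interval included the rRNA ratio. There were 12.5 rRNA reads for each mRNA read in supportive ISEMFs against 9.87 in non-supportive ones, a ratio of 1.27 (1.26 to 1.27). The mRNA count holds almost no reads of 6 of the 13 protein genes, which have no window unique within 2 mismatches. The 12.5 and 9.87 therefore compare counted reads and not the levels of the 2 classes. No fold is given for a gene with 3 reads or fewer in both libraries, and 3 reads made 5.92e-06% and 6.05e-06% of the reads on genes.

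**Figure D2:**
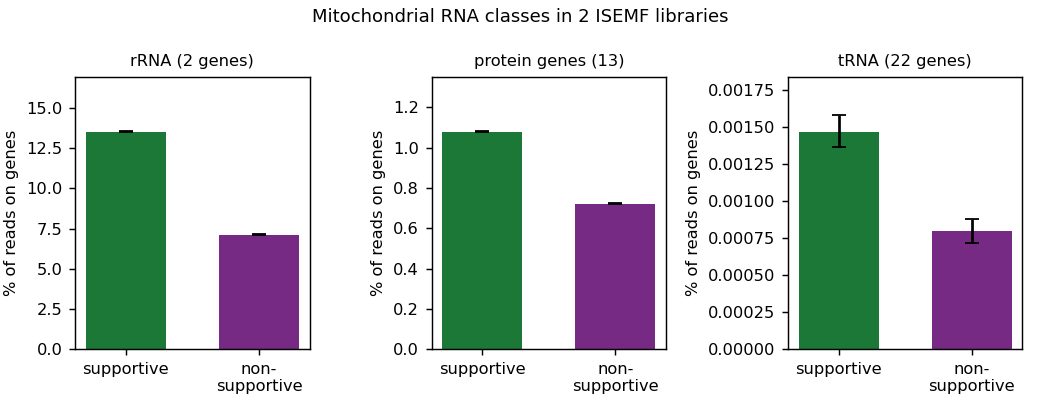
Percent of reads on genes that fell on mitochondrial rRNA, protein and tRNA genes in the supportive (green) and non-supportive (purple) library, each panel with its own axis from 0. Error bars are 95% exact intervals for counting error only, and in all panels the supportive bar is higher, 13.5% against 7.13% for rRNA.

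For single genes, a difference was counted where RPKM (reads scaled to gene length and library size) plus 0.1 differed 2-fold or more. Genes under an RPKM of 1 in both libraries were left out. Of all 10086 genes that remained, 909 (9.01%) were 2-fold higher and 935 (9.27%) were 2-fold lower in the supportive library. Only 16 of the 37 members remained, which were both rRNA genes, 7 protein genes and 7 tRNA genes. Of these 16, 1 was 2-fold higher (mt-Tl1) and 0 were 2-fold lower, which is not above the share over all genes. At 1.5-fold, 5 members (31.25%) were higher (mt-Rnr1, mt-Rnr2, mt-Co1, mt-Cytb and mt-Tl1) against 16.4% of all genes. At the same fold 2 members (12.5%) were lower (mt-Tl2 and mt-Tm) against 19.6% of all genes. These 2 had few reads, 5 and 10 for mt-Tl2 and 14 and 21 for mt-Tm, and both intervals of the ratio included 1. The median log2 ratio was 0.45 over the 16 members and -0.07 over all 10086 genes.

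Both rRNA genes stood at the top of the table. mt-Rnr2 (chrM:1094-2675, plus strand), the large-subunit 16S rRNA, had the most reads of any gene in both libraries, with 3636747 reads in supportive and 1877777 in non-supportive ISEMFs. mt-Rnr1 (chrM:70-1024, plus strand), the small-subunit 12S rRNA, came next with 3217836 and 1659441 reads. Per length mt-Rnr1 was the higher of the pair, at an RPKM of 47149 and 25020, whereas mt-Rnr2 stood at 32168 and 17091. The ratio between the libraries was 1.88 for mt-Rnr1 (1.88 to 1.89) and 1.88 for mt-Rnr2 (1.88 to 1.89). mt-Rnr1 reads were 0.885 of the mt-Rnr2 reads in supportive ISEMFs against 0.884 in non-supportive ones, so that the pair kept the same proportion within counting error (ratio 1.001, 0.999 to 1.004). Every window of mt-Rnr1 was unique within 2 mismatches and 73.2% of those of mt-Rnr2 were. mt-Rnr1, the higher rRNA per length, exceeded mt-Cytb, the highest of the 7 measurable mitochondrial mRNAs by RPKM, 23.2-fold and 21.5-fold. The library kit selects polyadenylated RNA, so these levels describe what was captured and not the rRNA content of the cells.

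**Figure D3:**
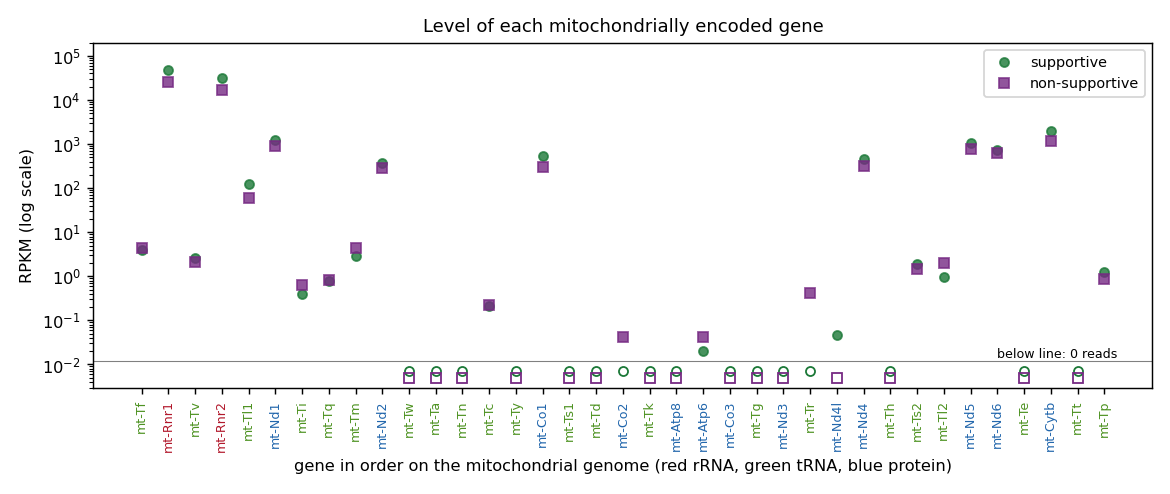
RPKM of each member on a log scale in the supportive (circles) and non-supportive (squares) library, in genome order, with genes without a read drawn as open symbols below the line. The rRNA genes lie between 17091 and 47149, 7 protein genes between 294 and 2033, mt-Tl1 at 125 and 60.1, and all other members below 5.

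Cytochrome b had the highest RPKM of the 7 mitochondrial mRNAs that could be measured. mt-Cytb (chrM:14145-15288), the only mitochondrially encoded subunit of complex III, had 166212 reads in supportive against 92266 in non-supportive ISEMFs, or an RPKM of 2033 and 1161. It ranked 1 among protein-coding genes by RPKM in supportive ISEMFs and 3 in non-supportive ISEMFs. Its ratio was 1.75 (1.74 to 1.76). mt-Cytb provided 30.4% of the counted mitochondrial mRNA reads in supportive ISEMFs against 25.8% in non-supportive ones.

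The catalytic subunit of complex IV, cytochrome c oxidase, had a ratio near that of mt-Cytb, and these 2 were the highest among the 7 measurable mRNAs. mt-Co1 (chrM:5328-6872) had 59064 and 32109 reads, an RPKM of 535 and 299, and a ratio of 1.79 (1.76 to 1.81), an interval that overlaps that of mt-Cytb. It ranked 14 among protein-coding genes in supportive and 43 in non-supportive ISEMFs by RPKM, which divides by the whole gene whatever share of it is unique. By copies within 2 mismatches, mt-Co1 was also the measurable mRNA with the smallest share of unique windows. Of its 1494 windows within 1 gene, 731 had no exact copy elsewhere and only 78 had no copy within 2 mismatches. By exact copies alone the unique share was smaller for mt-Nd4, at 38.0% against 48.9% for mt-Co1. The chromosome 2 copy of mt-Co1 is annotated as the pseudogene Gm13340 (chr2:22443623-22445167, minus strand), which matches chrM:5328-6872 from end to end. Gm13340 held 189 reads in supportive against 74 in non-supportive ISEMFs, a ratio of 2.48 (1.89 to 3.29). Whether these reads came from the pseudogene or from mt-Co1 was not tested.

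Complex I, the NADH dehydrogenase that feeds electrons into the chain, was represented by 5 measurable genes, and all had smaller ratios than mt-Cytb and mt-Co1. mt-Nd1 (chrM:2751-3707), a core membrane subunit near the ubiquinone site, had 86635 and 60129 reads in the supportive and non-supportive library, an RPKM of 1267 and 905, and a ratio of 1.40 (1.39 to 1.41). mt-Nd5 (chrM:11742-13565), a proton-pumping subunit, had 136120 and 99250 reads, an RPKM of 1044 and 783, and a ratio of 1.33 (1.32 to 1.34). mt-Nd4 (chrM:10167-11544), also a pumping subunit, had 44147 and 30152 reads, an RPKM of 448 and 315, and a ratio of 1.42 (1.40 to 1.44). These 3 genes had similar ratios, and the intervals of mt-Nd1 and mt-Nd4 overlap. mt-Nd2 (chrM:3914-4951), another pumping subunit, had 27044 and 21197 reads, an RPKM of 365 and 294, and a ratio of 1.24 (1.22 to 1.26). mt-Nd6 (chrM:13552-14070), the only protein gene on the minus strand, had 27893 and 23099 reads, an RPKM of 752 and 641, and the smallest ratio of the measurable mRNAs, 1.17 (1.15 to 1.19).

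The make-up of the mitochondrial mRNA pool differed between these libraries beyond counting error. For each complex I read there were 0.516 mt-Cytb reads in supportive ISEMFs against 0.395 in non-supportive ones, a ratio of 1.31 (1.30 to 1.32). mt-Co1 gave 0.184 and 0.137 reads per complex I read, a ratio of 1.34 (1.32 to 1.36). mt-Co1 and mt-Cytb had nearly the same ratio, with 0.355 and 0.348 mt-Co1 reads per mt-Cytb read, a ratio of 1.02 (1.01 to 1.04). Across the neighbouring genes of opposite strands, mt-Nd5 gave 4.88 and 4.30 reads per mt-Nd6 read, a ratio of 1.14 (1.11 to 1.16). These intervals were made on the log scale by a normal approximation and cover counting error only. The kit does not mark strand, so the mt-Nd6 count can hold RNA of either strand.

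**Figure D4:**
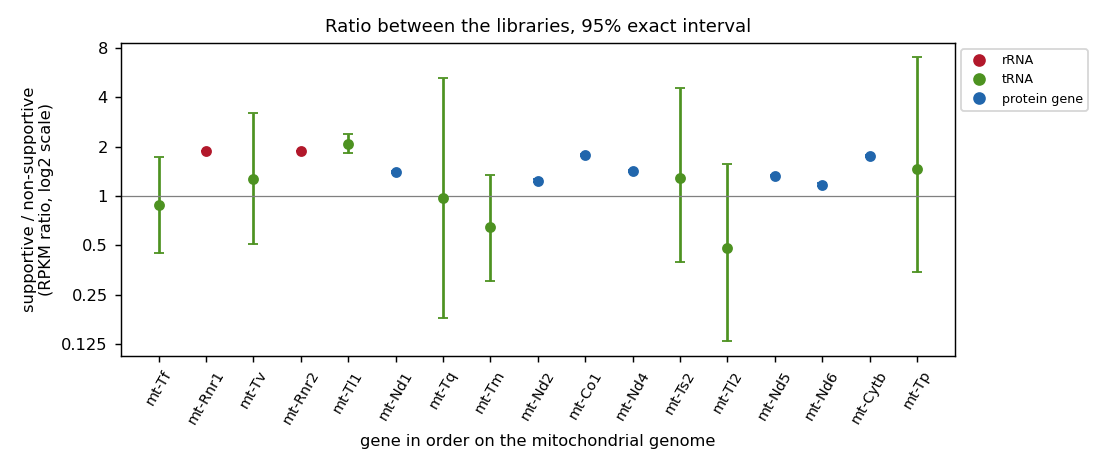
Ratio of RPKM in supportive over non-supportive ISEMFs on a log2 scale for the 17 members with more than 3 reads in either library, coloured by class, with 95% exact intervals for counting error only. Both rRNA genes lie at 1.88, the 7 protein genes between 1.17 and 1.79, mt-Tl1 at 2.09, and the intervals of the other 7 tRNA genes all include 1.

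The order of the mRNAs within a library depended on how length was counted. By RPKM, which divides by the whole gene, the measurable mRNAs spanned 5.58-fold in supportive against 3.95-fold in non-supportive ISEMFs, with mt-Cytb highest and mt-Nd2 lowest in both. Per window without an exact copy elsewhere they spanned 5.06-fold and 3.58-fold, and mt-Cytb (151 and 83.9 reads per window) and mt-Nd2 (29.9 and 23.4) kept those places. On that scale mt-Nd4 had 87.8 and 59.9 reads per window, mt-Co1 80.8 and 43.9, mt-Nd5 83.7 and 61.0, and mt-Nd1 95.6 and 66.4. These 4 genes were closer together on that scale than by RPKM. Per window unique within 2 mismatches the span was 17.1-fold and 11.9-fold, because mt-Co1 then had 757 and 412 reads per window and stood above mt-Cytb at 197 and 109. A ratio between the libraries is the same on all 3 scales, since both libraries are divided by the same number.

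The other 6 protein genes had almost no reads. mt-Co2, a complex IV subunit that receives electrons from cytochrome c, had 0 reads in supportive against 2 in non-supportive ISEMFs. mt-Co3, also of complex IV, mt-Atp8 of complex V and mt-Nd3 of complex I had 0 reads in both. mt-Atp6, the proton-channel subunit of complex V, had 1 and 2 reads, and mt-Nd4l of complex I had 1 and 0. Of their 2616 windows within 1 gene, 3 had no exact copy elsewhere and 0 had no copy within 2 mismatches. No fold was computed and no level can be read from these counts. Complex V thus had no measurable member.

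A single tRNA had more than 50 reads. It was mt-Tl1, a leucine tRNA that lies directly between mt-Rnr2 and mt-Nd1, with no base between them. It had 672 reads in supportive against 313 in non-supportive ISEMFs, an RPKM of 125 and 60.1, and a ratio of 2.09 (1.82 to 2.39). It gave 90.3% and 79.2% of all tRNA reads. Its ratio was near that of the rRNA that precedes it, since mt-Tl1 reads per mt-Rnr2 read differed by a ratio of 1.11 (0.969 to 1.27), an interval that includes 1. Against mt-Nd1, which follows it, the ratio was 1.49 (1.30 to 1.70). A 50-base read counted on a gene of 75 bases can also be part of a longer precursor that the counter assigned to it, which these counts cannot separate.

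Without mt-Tl1 the interval of the tRNA class included 1. The other 21 tRNA genes held 72 reads in supportive and 82 in non-supportive ISEMFs, a ratio of 0.853 (0.613 to 1.19). The highest were mt-Tf (phenylalanine, 19 and 21 reads), mt-Tm (methionine, 14 and 21) and mt-Tv (valine, 13 and 10), all 3 on the plus strand. Among the 21, 7 had more than 3 reads in either library and all 7 intervals of the ratio included 1, while 11 had no read in either library. Of the 22 tRNA genes, 10 had no window unique within 2 mismatches and 0 reads. The tRNA genes are 59 to 75 bases long and hold a median of 21 windows within 1 gene, so even a fully unique tRNA has little room for a read of this length. The 14 plus-strand tRNA genes held 733 and 386 reads, and the 8 minus-strand genes 11 and 9.

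The nuclear genes for mitochondrial expression and for the respiratory chain had a median ratio close to that of all genes, and a smaller share passed 2-fold. Of 220 such genes in 6 lists, 178 reached an RPKM of 1 in either library, and 1 (0.562%) was 2-fold higher and 1 (0.562%) 2-fold lower in the supportive library, against 9.01% and 9.27% of all genes. Their median log2 ratio was -0.12, close to the -0.07 of all genes. At 1.5-fold, 6 of the 178 were higher and 16 of the 178 lower, both smaller shares than the 16.4% and 19.6% of all genes. In the plot of the lists the nuclear medians lie between -0.38 and 0.14 and the medians of the 3 mitochondrial classes above that range. The tRNA median rests on few reads, since it is the 0.32 of mt-Tv, from 13 and 10 reads. Among the plotted tRNA genes only mt-Tl1 had an interval of the ratio that leaves out 1.

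**Figure D5:**
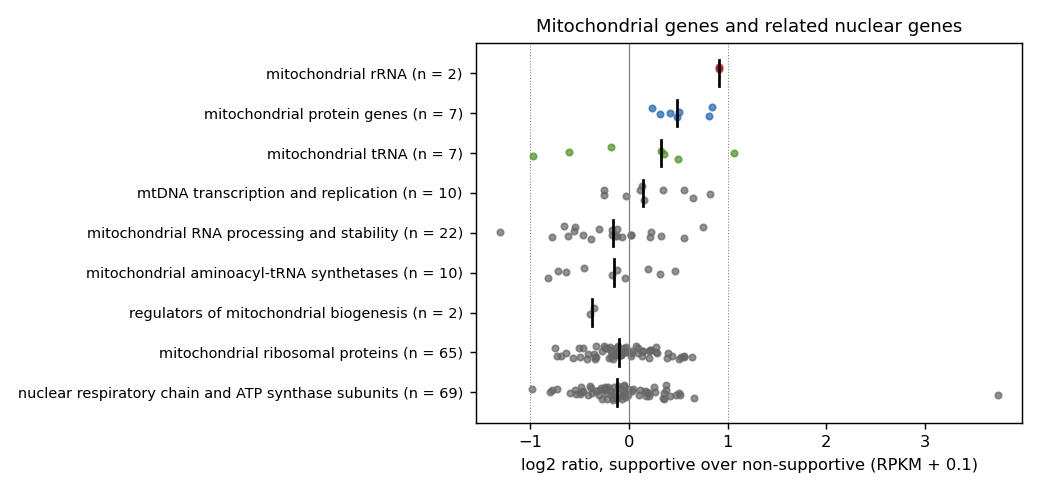
Log2 ratio of RPKM plus 0.1, supportive over non-supportive, for genes that reach an RPKM of 1 in either library, 1 point per gene, with the median as a black bar and dotted lines at 2-fold. The mitochondrial rRNA genes lie at 0.91 and the protein genes have a median of 0.49, whereas the median of the 6 nuclear lists ranges from -0.38 to 0.14.

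Among the genes for transcription and replication of mitochondrial DNA, 10 of 13 were measured at this level, with a median log2 ratio of 0.14 and 0 past 2-fold. Ssbp1, the mitochondrial single-strand DNA-binding protein and the highest of the list on average over both libraries, had an RPKM of 6.37 in supportive and 4.99 in non-supportive ISEMFs. Tfam, the packaging and transcription factor of mitochondrial DNA, had an RPKM of 6.45 and 4.36, a ratio of 1.48 (1.39 to 1.58). Polrmt, the mitochondrial RNA polymerase, had an RPKM of 0.335 and 0.265, below the minimum. Tfam and Polrmt were named after their values were seen.

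Of 28 genes for processing and stability of mitochondrial RNA, 22 were measured, with a median of -0.16. Trit1, which modifies an adenosine beside the anticodon of some tRNAs, was the 1 gene past 2-fold, with an RPKM of 3.06 in supportive and 7.71 in non-supportive ISEMFs, a ratio of 0.397 (0.357 to 0.441). Of 17 aminoacyl-tRNA synthetases of the organelle 10 were measured, with a median of -0.15 and 0 past 2-fold, and Lars2, which charges leucine tRNA, had an RPKM of 20.6 and 21.2. Of 76 mitochondrial ribosomal proteins 65 were measured, with a median of -0.10 and 0 past 2-fold. Mrpl52, the highest of them, had an RPKM of 23.5 and 26.8. The rRNAs of the same ribosome were 1.88-fold higher in the supportive library.

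Of 80 nuclear subunits of the respiratory chain and ATP synthase, 69 were measured, with a median of -0.13. Cox6b2, a testis form of a complex IV subunit, was the 1 gene past 2-fold, with 241 reads in supportive and 14 in non-supportive ISEMFs, an RPKM of 6.12 and 0.366. Of 6 regulators of mitochondrial biogenesis 2 were measured, with a median of -0.38 and 0 past 2-fold, and Gabpa, a subunit of nuclear respiratory factor 2, had an RPKM of 12.4 and 16.4. Ppargc1a, a coactivator of mitochondrial biogenesis, was below the minimum in both, with 2 and 43 reads, and was named after its values were seen.

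Other RNAs also differed between the libraries. The myofibroblast markers Acta2 and Vim were high in both, at an RPKM of 908 and 1410 for Acta2 and 325 and 407 for Vim, whereas Myh11 stood at 26.3 and 108 and Des was low at 0.575 and 3.40. Of 9 macrophage markers all 7 above the minimum were 2-fold lower in the supportive library, with a summed RPKM of 6.95 against 124, and Tyrobp, Emr1, Itgam and Ptprc had 0 reads there. Of 5 epithelial markers Cdx2 had 0 reads in both libraries, Epcam 0 and 5, and Vil1 7 and 8. Cdh1 had 159 and 18 reads, and Lgr5, also a marker of intestinal stem cells, 6702 and 4. Replication-dependent histone genes, whose mRNAs mostly end without a poly(A) tail, summed to 0.0164% and 0.0245% of the reads on genes. This sum ran in the opposite direction to the mitochondrial rRNA, but the single genes were mixed. The 14 above the minimum had a median log2 ratio of -0.60, and 4 of them were above 0. Hist1h1c, the histone gene with the most reads (4014 and 4004), had a ratio of 0.974 (0.932 to 1.02). Small nucleolar RNA ran the same way as the histone sum, at 0.00363% and 0.00656%. Miscellaneous RNA ran the same way as the mitochondrial rRNA, at 0.0426% and 0.0239%, a ratio of 1.77 (1.73 to 1.81), and 1 gene of 7SK, a small nuclear RNA without a poly(A) tail, held 20721 and 11253 of its 21600 and 11856 reads. Small nuclear RNA made 0.000774% and 0.000639%, a ratio of 1.202 (1.03 to 1.40). Nuclear-encoded rRNA had 114 and 132 reads, 0.000225% and 0.000266%, with a ratio of 0.839 (0.647 to 1.09) whose interval includes 1. In bulk RNA, fewer cells of a type and less RNA per cell cannot be told apart, and the part of the macrophage content and of poly(A) selection in the mitochondrial shares was not tested.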

How the data were processed

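RNA was sequenced from 1 supportive and 1 non-supportive ISEMF library as 50-base single-end reads, made with the TruSeq RNA kit. Per the submitters' processing notes the tools were TopHat2 2.0.4, HTSeq 0.5.4p3, TopHat and DESeq on mm9, and the methods keep unique hits with up to 2 mismatches. The strand setting of the counter, and whether a near copy made a hit non-unique, are not given in the sources used here. The authors deposited whole read counts per gene without normalization, and reads within no single gene were left out. The deposited RPKM are those counts divided by gene length and library size by the authors. Log2 ratios, p-values and adjusted p-values of the authors' own comparison, and a shorter table of Wnt pathway genes, were not used. Reads on genes were 70.9% and 71.4% of the library sizes behind RPKM.

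Log2 ratios used RPKM plus 0.1. With 1 library per population no test was run, neither edgeR's quasi-likelihood test nor any other. Ratios carry exact Clopper-Pearson intervals at 95% from the share of reads (scipy 1.17.1), for counting error only. edgeR 4.0.16 (TMM) and DESeq2 1.42.0 (median of ratios) gave alternative scalings. Windows of 50 bases were searched on both strands without gaps against the NCBIM37 reference, by a search checked against brute force on simulated sequence. Windows overlapping 2 mitochondrial genes were left out. Coordinates are from the GENCODE vM1 annotation, in which all 37 members have the length given in the table. Named genes were both rRNA genes, all protein-coding members, each tRNA with at least 50 reads, and of each nuclear list at most the 3 largest differences of 2-fold or more, or else the most highly expressed gene. Members and lists were chosen with earlier results of these data known.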

Additional observations from a re-analysis of the deposited data

How the results depend on the processing

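The rRNA and protein class ratios kept their direction under every alternative tried, and the tRNA ratio under all but 1. Without mt-Tl1, an alternative chosen after seeing the data, the tRNA log2 ratio of 0.87 became -0.23, from 72 and 82 reads with an interval that includes no difference. For rRNA the log2 ratio of 0.91 became 0.92 per read on genes, 1.03 per read on nuclear genes, 0.96 with TMM and 0.95 with median-of-ratios factors. For protein genes 0.57 became 0.58, 0.69, 0.62 and 0.61 under the same scalings, 0.49 as the median over single genes, 0.81 without overlapping genes, which leaves mt-Cytb as the only gene with many reads, and 0.54 without genes under 10% of unique windows, an alternative chosen after seeing the data that leaves out mt-Co1. For tRNA the log2 ratio became 0.14 as the median over the 8 genes above 3 reads, a construction that gives each gene with over 3 reads equal weight. Of the tRNA alternatives 5 others stayed inside the counting interval. The count of members 2-fold higher, 1, became 5 at 1.5-fold and 0 at 4-fold. The count 2-fold lower, 0, became 1 with a pseudocount of 0.001 (mt-Tl2), 2 at 1.5-fold and 1 without a minimum on RPKM (mt-Tr, with 0 and 2 reads, where RPKM plus 0.1 is compared below the floor of 3 reads). Among nuclear genes the counts of 1 and 1 became 6 higher and 16 lower at 1.5-fold. Levels per unique window, given beside RPKM, were also chosen after seeing the data.

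No paired analysis was possible because each population is 1 library, which also means that no library can be left out. A difference smaller than the spread between cultures cannot be recognised here. Counting error limits the tRNA genes, where all but mt-Tl1 have at most 21 reads, and it is not the limit for rRNA and protein genes. For genes whose windows all have an exact copy elsewhere, the limit is read length and unique mapping, whatever the depth. Genes with only part of their windows copied exactly, such as mt-Co1 and mt-Nd4, still held many reads.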

Other observations

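Few reads were counted on most of the annotated nuclear copies. On chromosome 1, Gm10222 (chr1:24619243-24619539, minus strand), which matches mt-Nd4l, had 1 read in supportive against 0 in non-supportive ISEMFs. Gm10925 (chr1:24620814-24621627, minus strand), which matches parts of mt-Atp8 and mt-Atp6, had 2 and 0. On chromosome 2, Gm13341, which matches part of mt-Co2, had 7 and 18 reads, a ratio of 0.378 (0.133 to 0.948), the opposite direction to its neighbour Gm13340, and Gm13339, which matches mt-Nd2, had 3 and 3.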
